A study of Mus musculus with 20 samples.

Results

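The transcription factor p53, encoded by Trp53 in the mouse, and 6 genes that it is known to activate were followed through CD4 T cells of different kinds. The genes are Trp53, Mdm2, Phlda3, Ccng1, Trp53inp1, Zmat3 and Aen, taken by symbol from a table of read counts for 22068 genes. All 7 passed the filter on low counts, which left 13309 genes for testing. They were measured in 20 RNA-seq libraries of sorted cells from spleen and lymph node of C57BL/6 mice aged 8 to 12 weeks that carried a Foxp3-GFP reporter. Regulatory T cells (Treg, positive for the reporter) and reporter-negative, CD44-low naive cells were sorted as TCRb+ CD4+ CD8-, after exclusion of cells stained for Ly6G, CD69, NK1.1, F4/80, B220, CD11b or CD11c. Naive cells came from the 15% with the highest surface CD5 (CD5hi) or the 15% with the lowest (CD5lo). CD5 is a surface protein whose level follows the strength of a T cell's contact with self peptide on MHC. The 5 groups of 4 libraries were Treg, rested CD5hi, rested CD5lo, fresh CD5hi and fresh CD5lo cells. Fresh cells and Treg went into lysis straight after the sort, and rested cells spent 22 hours in culture with interleukin 7 at 10 ng per mL, away from self peptide and MHC. Interleukin 7 was thus given to all rested cells and to no fresh cell, and culture, cytokine and loss of self contact cannot be told apart.

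As background, p53 is kept scarce by Mdm2, a ubiquitin ligase that marks it for degradation, with help from the related protein Mdm4, and stress frees it mainly at the level of the protein. Freed p53 binds DNA as a tetramer and raises its targets, Mdm2 included, which closes a feedback loop. In lymphocytes it is best known for removing cells with DNA damage. The level of Trp53 RNA is therefore no measure of p53 activity, and the targets also answer to other factors.

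The sequence that p53 binds is made of a pair of half-sites. Promoter sequences, 250 bases before to 50 bases after each annotated start, were taken from RefSeq (GRCm38.p6) for the 5 of the 7 genes that matched, without Trp53inp1 and Zmat3. Of these 5 genes, 4 held at least 1 exact match to the p53 half-site consensus, against 9.55% of 27025 genes, or 8.36% of 32851 promoters, in the same table. The stretches below are shown because they carry those matches, with the half-site in capitals and 25 bases to either side. The promoter of Cdkn1a, a well known p53 target that encodes the cell cycle inhibitor p21, is added for comparison. Its stretch also holds a further exact half-site, starting at -73 from the transcription start, which is left in lower case.
Trp53, chr11:69580259-69580318, plus strand: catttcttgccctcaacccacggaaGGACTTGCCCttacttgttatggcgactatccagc
Mdm2, chr10:117710910-117710969, minus strand: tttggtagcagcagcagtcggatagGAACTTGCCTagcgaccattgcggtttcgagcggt
Ccng1, chr11:40755437-40755496, minus strand: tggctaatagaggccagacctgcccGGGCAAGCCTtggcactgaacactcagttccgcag
Aen, chr7:78895912-78895971, plus strand: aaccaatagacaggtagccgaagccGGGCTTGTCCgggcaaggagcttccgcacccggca
Cdkn1a, chr17:29090903-29090962, plus strand: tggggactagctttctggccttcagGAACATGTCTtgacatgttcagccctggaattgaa
The consensus reads the same on both strands. Only the start-proximal window was searched, and the p53 sites through which Mdm2 is known to respond lie in its first intron, outside that window.

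A full site of 2 adjoining half-sites with at most 1 mismatch was rare, at 29 of 32851 promoters (0.0883%). Ccng1 was the member that held one, starting 195 bases before its start, and Cdkn1a held another, 51 bases before 1 of its 2 annotated starts. The window of the other Cdkn1a start held no half-site, and its best full site had 5 mismatches. They are shown with both half-sites in capitals, and each overlaps the half-site shown above for the same gene.
Ccng1, chr11:40755447-40755496, minus strand: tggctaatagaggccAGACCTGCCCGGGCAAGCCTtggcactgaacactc
Cdkn1a, chr17:29090913-29090962, plus strand: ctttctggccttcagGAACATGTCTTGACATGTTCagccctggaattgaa
Phlda3, whose RNA changed most below, held no exact half-site in this window. Its window ends in gaacatgt, which fits the consensus up to the window's edge, so a half-site there could not be scored. A match is a run of letters and was not tested for binding.

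**Figure D1:**
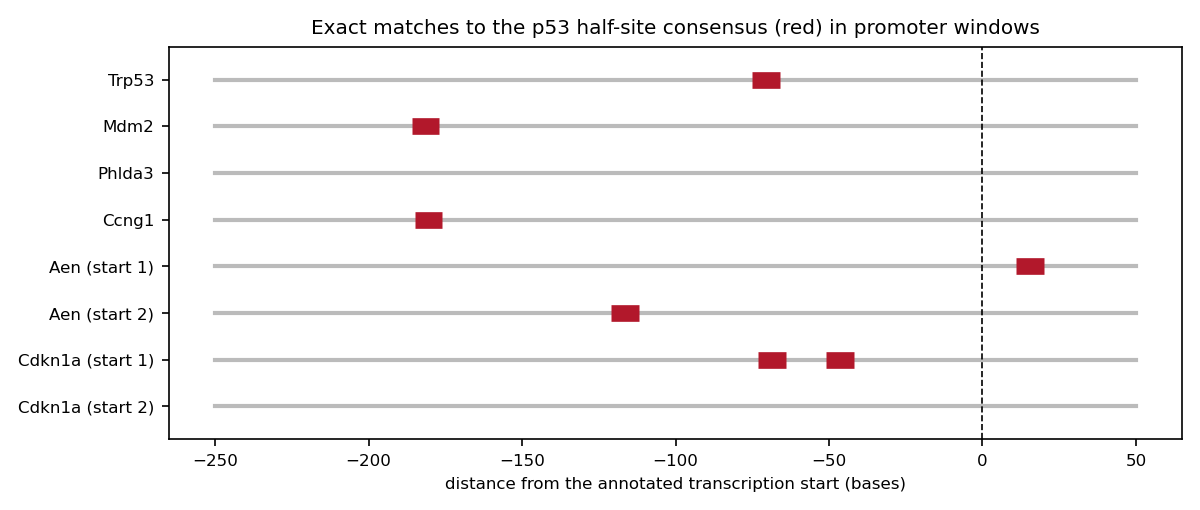
Positions of exact matches to the p53 half-site consensus (red) in RefSeq promoter windows (grey), as distance in bases from the annotated transcription start (dashed), with 1 row per annotated start. Trp53, Mdm2, Ccng1 and Aen hold matches, and the window of Phlda3 holds none. Cdkn1a holds separate matches starting at -73 and -51, at 1 of its 2 starts.

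Total counts per library were 38211406 to 64477566, and p-values measure the spread between libraries that the series text calls biological replicates. The labels describe every sample as pooled male and female. In the counts all 8 fresh libraries carried Y-linked reads with at most 0.721 CPM of Xist, whereas among the Treg, rested CD5hi and rested CD5lo libraries only replicate 3 of each carried Y-linked reads. Sex therefore differs between these groups and the fresh ones, and values within the libraries with Y-linked reads are given where they differ. A term for sex is set only by replicate 3 against the other replicates of Treg and the rested groups. An effect of sex therefore cannot be told apart from another trait of replicate 3. The defining T cell genes Cd3e, Cd3g, Cd3d, Cd4, Lck and Cd28 were detected in every group. Rested libraries and Treg were each set against the same fresh libraries, so these comparisons share their controls and do not stand as independent of each other.

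Trp53 RNA overlapped among the 4 naive groups and was lower in Treg. In replicates 1 to 4, Treg held 145, 152, 136 and 148 CPM (counts brought to a common library size with TMM factors). Rested CD5hi cells held 169.9, 159.9, 154 and 171 CPM, rested CD5lo cells 177, 166, 173 and 163 CPM, fresh CD5hi cells 156, 156, 174 and 158 CPM and fresh CD5lo cells 161, 168, 183 and 161 CPM. Every Treg library lay below every naive one, and no naive group stood apart from the others. Ranges apart were common, at 54% of all genes between Treg and fresh CD5hi and 56.5% between Treg and fresh CD5lo cells. In Treg the level was lower than in fresh CD5lo cells by a log2 fold change of -0.21 ± 0.05 (SE; edgeR quasi-likelihood test, adjusted p = 0.00162), and lower than in fresh CD5hi cells by -0.15 ± 0.05 (adjusted p = 0.0207). The call against CD5hi cells was fragile: its adjusted p was 0.0602 with DESeq2's size factors, 0.0613 without a filter, 0.0646 with a filter at 1 CPM in 4 libraries and 0.0596 in DESeq2. It was also lost without fresh CD5hi replicate 3 (-0.09, adjusted p = 0.155) or without Treg replicate 1, 3 or 4 (adjusted p = 0.0639, 0.135 and 0.054). Among libraries with Y-linked reads the value was -0.23, where Treg is replicate 3 alone, its lowest library for Trp53. In bulk RNA, fewer cells that express a gene and less RNA per cell cannot be told apart.

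After rest Trp53 was close to its fresh level, with log2 fold changes of 0.01 ± 0.05 in CD5lo cells (adjusted p = 0.848) and 0.02 ± 0.05 in CD5hi cells (adjusted p = 0.737). These small values turned negative with a term for sex, at -0.03 in both.

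**Figure D2:**
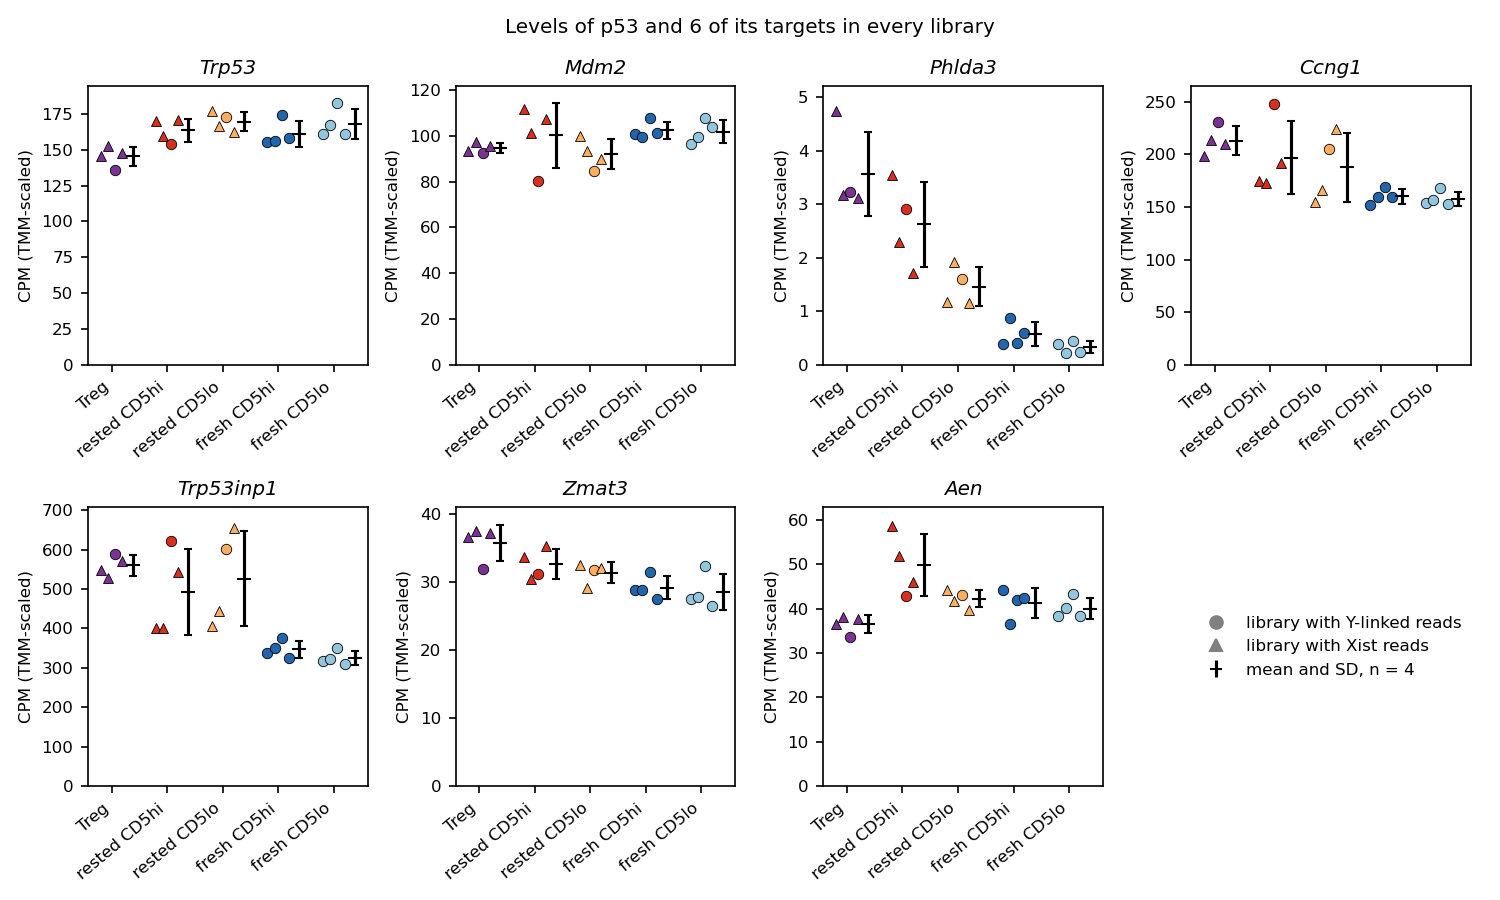
Level of each of the 7 genes in every library, in CPM on a linear axis from 0. Circles are libraries with Y-linked reads, triangles those with Xist reads, and bars show the mean and SD of 4. Phlda3 and Trp53inp1 lie higher in Treg and both rested groups than in the fresh groups, and Trp53 lies lowest in Treg.

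Mdm2, the negative regulator that is itself a target, was not called in any of the 7 comparisons. Its level was 93.4, 97.5, 92.4 and 95.4 CPM in Treg, 112, 101, 80.1 and 107 CPM in rested CD5hi cells and 100.05, 93.4, 84.9 and 90.1 CPM in rested CD5lo cells. Fresh CD5hi cells held 101, 99.5, 108 and 101 CPM and fresh CD5lo cells 96.5, 99.7, 108 and 104 CPM. The means lay between 92.1 ± 6.36 CPM in rested CD5lo cells and 102 ± 3.78 CPM in fresh CD5hi cells (SD, n = 4 each), and neighbours in the order of the means overlapped. Every Treg library lay below every fresh CD5hi one (92.4 to 97.5 against 99.5 to 108 CPM), where 54% of all genes had ranges apart. Replicate 3 was the lowest library of Mdm2 in Treg and in both rested groups, and the highest in both fresh groups. The log2 fold changes against the fresh cells were -0.15 ± 0.07 in rested CD5lo cells (adjusted p = 0.104), -0.03 ± 0.07 in rested CD5hi cells (adjusted p = 0.743), and -0.11 ± 0.07 in Treg against both CD5lo (adjusted p = 0.231) and CD5hi (adjusted p = 0.206).

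Whether Mdm2 was called changed with a term for sex, which here cannot be told apart from a term for replicate 3 of Treg and rested cells. With a term for sex, Mdm2 was lower in rested CD5lo cells (-0.30, adjusted p = 0.00153), in rested CD5hi cells (-0.19, adjusted p = 0.0334) and in Treg against CD5lo (-0.26, adjusted p = 0.00445) and CD5hi cells (-0.26, adjusted p = 0.0039). Among libraries with Y-linked reads the rested values were -0.25 in CD5lo (adjusted p = 0.0123) and -0.34 in CD5hi cells (adjusted p = 0.00149), each resting on a single rested library that is assumed to vary like the other groups. In rested CD5lo cells the call also appeared without rested CD5lo replicate 1 (adjusted p = 0.0468). No setting gave a higher Mdm2 that was called in rested cells or Treg against fresh cells.

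Mdm4, which binds p53 and blocks its activity, was lower in Treg. It held 229, 228, 240.5 and 257 CPM in Treg, 339, 316, 336 and 343 CPM in fresh CD5hi cells and 319, 361, 371 and 382 CPM in fresh CD5lo cells. No Treg library reached the lowest fresh one, and the log2 fold changes were -0.48 ± 0.14 against CD5hi (adjusted p = 0.00601) and -0.59 ± 0.14 against CD5lo (adjusted p = 0.00114). Rested libraries were split, at 335, 322, 185 and 336 CPM in CD5hi cells and 326, 315, 221 and 239 CPM in CD5lo cells. Mdm4 was called lower in rested CD5lo cells (-0.38 ± 0.14, adjusted p = 0.0269), which was lost without fresh CD5lo replicate 4 or rested CD5lo replicate 3 or 4 (adjusted p = 0.0605, 0.0922 and 0.0786). In rested CD5hi cells it was not called (-0.18 ± 0.14, adjusted p = 0.295), but was called with a term for sex (-0.50, adjusted p = 0.00471). Among libraries with Y-linked reads the value was -0.83, where rested CD5hi is replicate 3 alone, its lowest library for Mdm4.

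Of the 7 genes, 4 were called higher and none lower in rested CD5hi cells against fresh CD5hi cells, where 52.4% of all genes tested were called, 26.2% higher and 26.2% lower. In rested CD5lo cells against fresh CD5lo cells 3 were higher and none lower, with 54.3% of all genes called, 26.9% higher and 27.3% lower. With about every other gene called, these counts alone do not set the genes apart from the rest of the transcriptome. The median log2 fold change of the 7 was 0.27 in CD5hi and 0.14 in CD5lo cells, against 0.0003 and -0.01 over all genes. The 7 genes and the other lists were chosen with earlier results of these data known. These medians and those of the lists below are therefore descriptions and were not tested. In Treg, 4 genes were higher and 1 lower against either fresh group, where 54.2% of all genes were called against CD5hi (27.5% higher, 26.6% lower) and 58.5% against CD5lo cells (29.2% higher, 29.4% lower). After rest the ranges did not overlap in 3 of the 7 genes in CD5hi and 2 in CD5lo cells, against 45.8% and 48.1% of all genes. In Treg they did not overlap in 6 of the 7 against fresh CD5hi and 5 against fresh CD5lo cells, against 54% and 56.5% of all genes.

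Phlda3 showed the largest change. It encodes a small membrane-binding protein that competes with Akt for lipids and so restrains Akt, and it was scarce in fresh cells. Its level was 4.73, 3.17, 3.23 and 3.11 CPM in Treg, from 146 to 278 counts per library. Rested CD5hi cells held 3.55, 2.29, 2.92 and 1.72 CPM and rested CD5lo cells 1.17, 1.91, 1.60 and 1.15 CPM. Fresh CD5hi cells held 0.388, 0.879, 0.408 and 0.599 CPM from 18 to 39 counts, and fresh CD5lo cells 0.390, 0.221, 0.450 and 0.233 CPM from 12 to 23 counts. Every rested library of either CD5 class lay above every fresh library, and every Treg library above every fresh and every rested CD5lo one.

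Against fresh cells, Phlda3 was 4.61-fold higher in rested CD5hi cells (log2 fold change 2.21 ± 0.29, adjusted p = 1.89e-06) and 4.47-fold higher in rested CD5lo cells (2.16 ± 0.31, adjusted p = 6.93e-06). In Treg it was 6.30-fold above fresh CD5hi cells (2.66 ± 0.29, adjusted p = 7.48e-08) and 10.99-fold above fresh CD5lo cells (3.46 ± 0.31, adjusted p = 2.63e-09). These 4 calls held in every alternative run, with log2 fold changes of 2.03 to 2.47 in rested CD5hi, 2.01 to 2.35 in rested CD5lo and 2.50 to 3.67 in Treg. Among libraries with Y-linked reads the changes were 2.38 in rested CD5hi, 2.32 in rested CD5lo, and 2.53 and 3.33 in Treg against CD5hi and CD5lo.

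Trp53inp1, a stress protein that binds p53 and also acts in autophagy, was higher in Treg and in rested cells of both CD5 classes. It held 549, 529, 589.9 and 572 CPM in Treg, 401, 402, 622 and 542 CPM in rested CD5hi cells and 406, 444, 602 and 656 CPM in rested CD5lo cells. Fresh CD5hi cells held 338, 350.2, 375 and 324 CPM and fresh CD5lo cells 316, 323, 350.1 and 311 CPM. No Treg or rested library fell into the range of the fresh ones, and in each of these comparisons 45.8% to 56.5% of all genes had ranges apart. In both rested groups replicates 3 and 4 were far above replicates 1 and 2, a split that fresh cells did not show.

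The log2 fold change of Trp53inp1 in Treg was 0.69 ± 0.13 against fresh CD5hi (adjusted p = 0.000155) and 0.78 ± 0.13 against fresh CD5lo cells (adjusted p = 3.32e-05). After rest it was 0.50 ± 0.13 in CD5hi (adjusted p = 0.00334) and 0.70 ± 0.13 in CD5lo cells (adjusted p = 0.000173). These calls held in every alternative run, but the size in rested cells moved. With rested replicates 1 and 2 alone, a choice made after the data were seen, it was 0.20 in CD5hi (adjusted p = 0.0106) and 0.38 in CD5lo cells (adjusted p = 3.16e-05). Among libraries with Y-linked reads it was 0.86 in CD5hi and 0.91 in CD5lo cells, where each rested group is replicate 3 alone.

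Ccng1 encodes cyclin G1, which recruits a phosphatase to Mdm2. It held 198, 213, 231 and 209 CPM in Treg, 175, 173, 248 and 192 CPM in rested CD5hi and 155, 166, 205 and 224 CPM in rested CD5lo cells. Fresh CD5hi cells held 152, 159.5, 169 and 159 CPM and fresh CD5lo cells 154, 157, 168 and 153 CPM. All Treg and all rested CD5hi libraries lay above the fresh ones, while the rested CD5lo range overlapped that of fresh CD5lo cells. Ccng1 was higher in Treg by a log2 fold change of 0.41 ± 0.10 against CD5hi (adjusted p = 0.00204) and 0.43 ± 0.10 against CD5lo cells (adjusted p = 0.00121).

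The size of the Ccng1 change after rest depended on which replicates entered. It was 0.30 ± 0.10 in CD5hi cells (adjusted p = 0.021), lost without rested CD5hi replicate 3 (0.16, adjusted p = 0.156) or fresh CD5hi replicate 1 (adjusted p = 0.057). In CD5lo cells it was 0.25 ± 0.10 (adjusted p = 0.0478) and was lost in 11 of 18 alternatives, among them leaving out rested CD5lo replicate 4 (0.15, adjusted p = 0.247) or 3 (0.20, adjusted p = 0.153), or any single fresh CD5lo library (adjusted p = 0.0519 to 0.11). With rested replicates 1 and 2 alone it was 0.11 in CD5hi (adjusted p = 0.133) and 0.02 in CD5lo cells (adjusted p = 0.815). With replicates 3 and 4 alone it was 0.47 (adjusted p = 8.35e-05) and 0.45 (adjusted p = 0.000103) in the same order. With a term for sex the values were 0.49 (adjusted p = 0.000384) and 0.45 (adjusted p = 0.000877). Among libraries with Y-linked reads they were 0.64 and 0.40, where each rested group is replicate 3 alone, the highest rested CD5hi library for Ccng1.

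**Figure D3:**
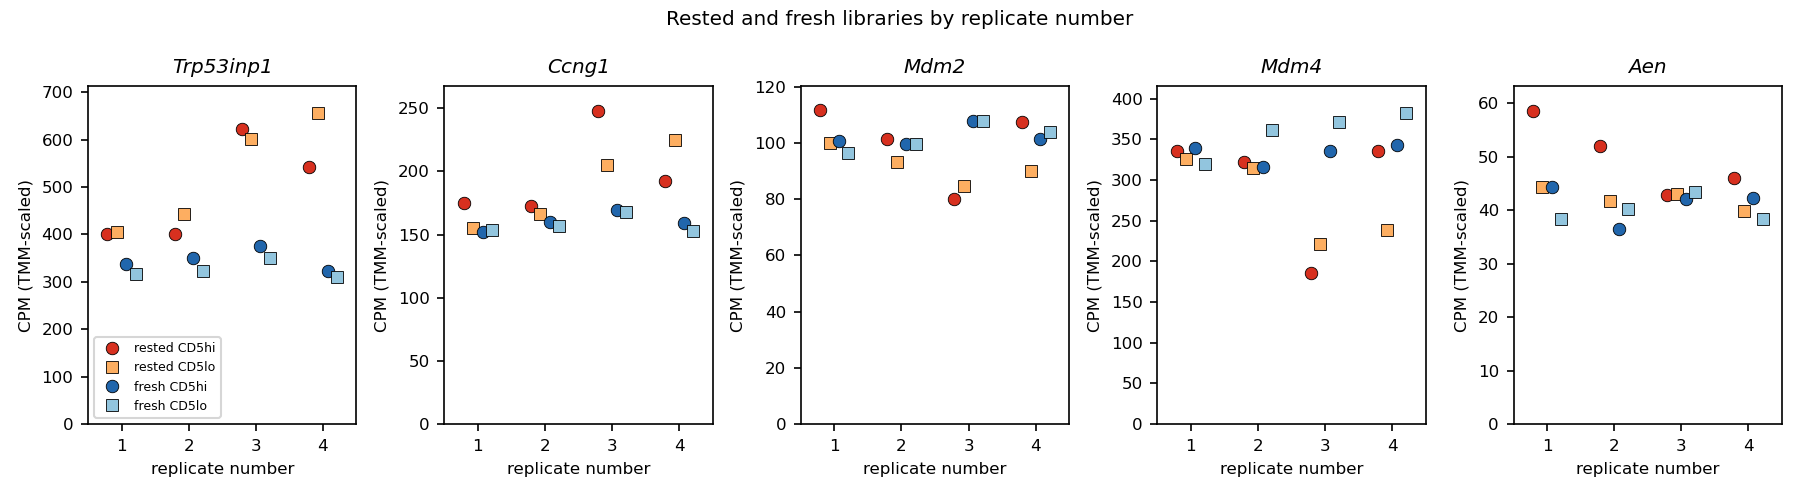
Level in CPM (linear axis from 0) of Trp53inp1, Ccng1, Mdm2, Mdm4 and Aen by replicate number in rested and fresh libraries. Rested replicates 3 and 4 lie above replicates 1 and 2 for Trp53inp1 and Ccng1, and rested replicate 3 lies lowest for Mdm4 and Mdm2, while the fresh libraries show no such split.

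Zmat3 encodes a zinc finger protein that binds RNA. It was higher in Treg, at 36.6, 37.5, 31.9 and 37.1 CPM, against 28.8, 28.9, 31.5 and 27.5 CPM in fresh CD5hi cells and 27.5, 27.8, 32.4 and 26.5 CPM in fresh CD5lo cells. Replicate 3 was the lowest Treg library and the highest in each fresh group, so that the Treg range met that of fresh CD5lo cells and stayed just above that of fresh CD5hi cells. The log2 fold change was 0.29 ± 0.07 against CD5hi (adjusted p = 0.0012) and 0.33 ± 0.07 against CD5lo cells (adjusted p = 0.000414). Both calls were lost among libraries with Y-linked reads, where Treg is replicate 3 alone (0.14, adjusted p = 0.295, and 0.18, adjusted p = 0.183). Rested cells held 30.5 to 35.2 CPM in CD5hi and 29.1 to 32.5 CPM in CD5lo and were not called (0.16 ± 0.07, adjusted p = 0.0571, and 0.14 ± 0.07, adjusted p = 0.106). Leaving out fresh CD5hi replicate 3 or rested CD5hi replicate 2 gave a call in CD5hi (adjusted p = 0.0339 and 0.0385), and leaving out fresh CD5lo replicate 3 gave one in CD5lo cells (0.20, adjusted p = 0.0177).

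Aen encodes a nuclease that takes part in apoptosis. Its order of levels differed from that of the other targets, with Treg lowest. It held 36.5, 38.1, 33.6 and 37.7 CPM in Treg, 58.5, 51.9, 42.8 and 46.1 CPM in rested CD5hi cells and 44.2, 41.6, 43.0 and 39.8 CPM in rested CD5lo cells. Fresh CD5hi cells held 44.2, 36.5, 42.0 and 42.3 CPM and fresh CD5lo cells 38.3, 40.2, 43.3 and 38.2 CPM. Rested CD5hi replicates 1 and 2 were the highest of the 20 libraries, and the other 2 rested CD5hi libraries lay at or near the fresh range. Aen was called higher in rested CD5hi cells (0.27 ± 0.08, adjusted p = 0.00766) and not in rested CD5lo cells (0.08 ± 0.08, adjusted p = 0.449).

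That call on Aen was lost with a term for sex (0.17, adjusted p = 0.127) and when rested replicates 3 and 4 alone were used (0.11, adjusted p = 0.225). Among libraries with Y-linked reads the value was 0.07, where rested CD5hi is replicate 3 alone, its lowest library for Aen. In Treg, Aen had log2 fold changes of -0.18 ± 0.08 against CD5hi (adjusted p = 0.0689) and -0.13 ± 0.08 against CD5lo cells (adjusted p = 0.166). With a term for sex Aen was called lower in Treg in both, at -0.28 (adjusted p = 0.0145) and -0.23 (adjusted p = 0.0348). Against CD5hi it was also called lower in the fit on the compared groups only (adjusted p = 0.0293) and without fresh CD5hi replicate 2 (adjusted p = 0.0321). Among libraries with Y-linked reads the value against CD5hi was -0.28, where Treg is replicate 3 alone, its lowest library for Aen.

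**Figure D4:**
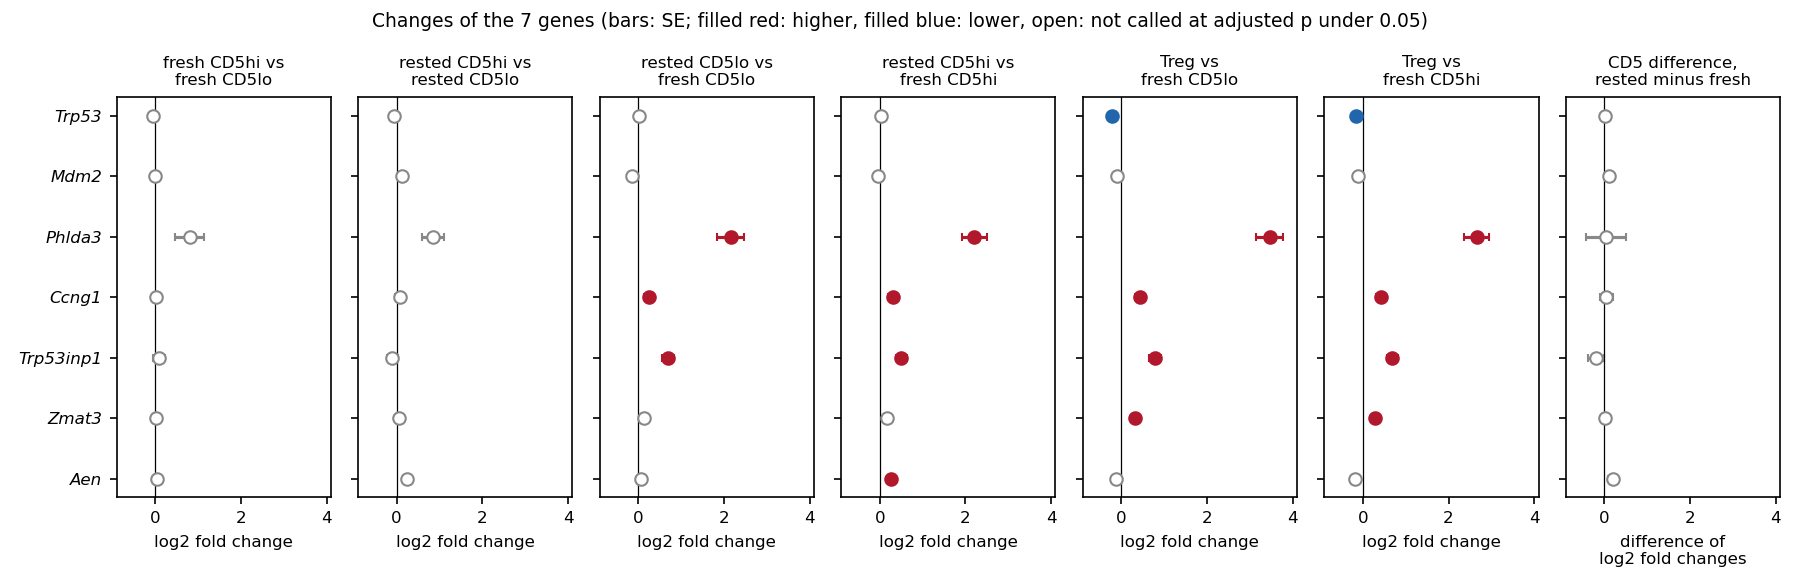
Log2 fold change of the 7 genes in 6 comparisons, and in the last panel the CD5hi to CD5lo difference after rest minus that in fresh cells; bars are SE, filled points were called at an adjusted p under 0.05 (red higher, blue lower) and open points were not. Phlda3 shifts by more than 2 in both rested groups and in Treg, Trp53 is filled in the Treg comparisons and in no other, and no point is filled in the comparisons of CD5hi with CD5lo cells. All points are from the model without a replicate block.

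Between CD5 classes the edgeR model without a block called none of the 7 genes, while DESeq2 and the replicate block called Phlda3 and Aen in rested cells. In fresh CD5hi against fresh CD5lo cells, 0 of 7 were called by edgeR and by DESeq2, where edgeR called 11.5% of all genes (6.86% higher, 4.59% lower). There 1 of the 7 had an unadjusted p under 0.05, as had 2795 of all 13309 genes. In rested CD5hi against rested CD5lo cells, 0 of 7 were called by edgeR, which called 8.2% of all genes (4.74% higher, 3.46% lower). There 2 of the 7 had an unadjusted p under 0.05, as had 2512 of all 13309 genes. DESeq2 called 2 of the 7 in rested cells, and its share over all genes is not given here. Phlda3 came nearest: it averaged 0.569 ± 0.228 CPM in fresh CD5hi and 0.324 ± 0.114 CPM in fresh CD5lo cells (SD, n = 4 each; log2 fold change 0.80 ± 0.34, adjusted p = 0.156), and 2.62 ± 0.790 CPM in rested CD5hi and 1.46 ± 0.367 CPM in rested CD5lo cells (0.85 ± 0.27, adjusted p = 0.0534). Aen averaged 49.8 ± 6.91 CPM in rested CD5hi and 42.2 ± 1.92 CPM in rested CD5lo cells (0.24 ± 0.08, adjusted p = 0.0742). The other 5 genes had log2 fold changes between -0.10 and 0.12 in both.

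The labels state no pairing, but CD5hi and CD5lo libraries of the same replicate number deviated together and were taken as paired. With the replicate number as a block, Phlda3 (0.82, adjusted p = 0.0409) and Aen (0.23, adjusted p = 0.0192) were called higher in rested CD5hi cells. Over all genes the block raised the calls in rested cells from 1092 to 2372. The calls on Phlda3 and Aen also appeared without single rested libraries. Phlda3 was called without rested CD5lo replicate 2 (1.004, adjusted p = 0.0378) or rested CD5hi replicate 4 (1.004, adjusted p = 0.0222). Aen was called without rested CD5hi replicate 3 (0.30, adjusted p = 0.0134) or 4 (adjusted p = 0.0491), and Mdm2 without rested CD5hi replicate 3 (0.21, adjusted p = 0.0143). Summed CD8 markers moved with CD5 class, from 6.21 to 8.92 CPM in CD5hi and from 18.5 to 35.0 CPM in CD5lo libraries, nearly all of it Cd8b1, and their part in these values was not tested.

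Whether rest changed the CD5 difference was tested as an interaction. It was called in 0 of 7 genes by edgeR, with 0 at an unadjusted p under 0.05 and 0 by DESeq2, where edgeR called 0.451% of all genes (0.113% higher, 0.338% lower). An unadjusted p under 0.05 was reached by 848 of all 13309 genes. Aen had the largest value for its error (0.20 ± 0.11, adjusted p = 0.942), and that of Phlda3 was 0.05 ± 0.47.

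Among other p53 targets of arrest, stress and repair (20 genes, all tested), Cdkn1a was, like Phlda3, scarce in fresh cells and higher in rested cells and Treg. Its counts were 86, 83, 61 and 50 in Treg, 54, 50, 113 and 76 in rested CD5hi cells and 20, 12, 16 and 14 in rested CD5lo cells. Fresh cells had almost none, with 4, 4, 8 and 0 counts in CD5hi and 4, 2, 0 and 0 in CD5lo cells. Cdkn1a was called higher in both rested groups and in Treg against both fresh groups (adjusted p from 3.61e-08 to 0.00018), with fitted log2 fold changes of 3.45 to 5.50 that rest on few fresh counts. Without fresh CD5lo replicate 1 the value of Cdkn1a against fresh CD5lo cells was 6.53 in Treg and 4.46 in rested CD5lo cells, against 5.50 and 3.45 with all libraries. Within rested cells the CD5hi libraries were all above the CD5lo ones, by 2.32 ± 0.40 (adjusted p = 0.000497), where 10.3% of all genes had ranges apart. Rested replicates 1 and 2 alone gave no call on Cdkn1a there (1.80, adjusted p = 0.0573).

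Of these 20 genes, 10 were higher and 4 lower in rested CD5hi cells, and 8 were higher and 4 lower in rested CD5lo cells. Sesn1, a sestrin that restrains growth signalling through mTORC1, held 293, 303, 331 and 313 CPM in rested CD5hi cells, against 131, 139, 131 and 136 CPM in fresh CD5hi cells (1.21 ± 0.05, adjusted p = 2.71e-14). In CD5lo cells it held 304, 318, 332 and 353 CPM rested, against 138, 139, 138 and 139 CPM fresh (1.24 ± 0.05, adjusted p = 1.97e-14). The rested and fresh ranges of Sesn1 were far apart. The kinase gene Plk2 rose by 1.71 ± 0.32 in CD5hi and 1.66 ± 0.33 in CD5lo cells, and Ptprv, a phosphatase gene that p53 activates in mice, fell by 2.20 and 2.42 in the same order. The median log2 fold change of the list was 0.22 in rested CD5hi and 0.14 in rested CD5lo cells, and its 70% and 60% called compare with the 52.4% and 54.3% of all genes given above.

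In Treg 11 of the 20 genes were higher and 4 lower against CD5hi cells, and 11 higher and 6 lower against CD5lo cells, which is 75% and 85% called, against 54.2% and 58.5% of all genes. Ptprv, which fell with rest, was higher in Treg by 2.52 ± 0.23 and 2.75 ± 0.23. Plk2 was higher by 2.17 ± 0.31 and 2.56 ± 0.32, and the sestrin gene Sesn2 by 1.46 ± 0.17 and 1.73 ± 0.18. The median of the list was 0.22 against CD5hi and 0.31 against CD5lo cells.

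Among targets that promote cell death (10 of 12 tested), 7 were higher and none lower in rested CD5hi cells, and 6 higher and 2 lower in rested CD5lo cells, which is 70% and 80% called, against 52.4% and 54.3% of all genes. Bax, the pore-forming member of the Bcl-2 family, held 105, 109, 113 and 93.7 CPM in rested CD5hi against 60.9 to 63.97 CPM in fresh CD5hi cells (0.75 ± 0.06). In CD5lo cells it held 90.7, 91.0, 98.3 and 100.5 CPM rested against 54.0 to 58.1 CPM fresh (0.78 ± 0.06). Fas, the death receptor, was higher by 0.57 ± 0.13 and 0.66 ± 0.13, and replicates 3 and 4 were its highest rested libraries. Bbc3 encodes the BH3-only protein Puma, which frees Bax, and it held 40.6, 41.8, 66.6 and 46.1 CPM in rested CD5hi cells, 25.1, 24.2, 39.3 and 35.7 CPM in rested CD5lo cells, 28.1, 30.2, 26.4 and 40.4 CPM in fresh CD5hi cells and 10.3, 15.0, 10.1 and 14.2 CPM in fresh CD5lo cells. It was thus higher after rest in CD5hi (0.64 ± 0.17, adjusted p = 0.00419) and CD5lo cells (1.32 ± 0.18, adjusted p = 3.09e-06).

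In Treg 7 of these 10 genes were higher against CD5hi and 8 against CD5lo cells, and none was lower, where 27.5% and 29.2% of all genes were higher. Pmaip1, which encodes the BH3-only protein Noxa, held 11.4, 12.3, 13.9 and 14.2 CPM in Treg, against 0.539 to 0.887 CPM in fresh CD5hi and 0.612 to 1.08 CPM in fresh CD5lo cells. Treg stood far above both, by 4.18 ± 0.19 (adjusted p = 3.52e-14) and 3.98 ± 0.18 (adjusted p = 4.31e-14). Bid, another BH3-only gene, was higher by 0.90 ± 0.08 and 1.19 ± 0.08, and Pidd1 (listed as Lrdd) by 0.82 ± 0.13 and 0.85 ± 0.13. Bbc3 differed from these: Treg held 24.9 to 26.6 CPM, above fresh CD5lo cells (1.05 ± 0.18) and not called against fresh CD5hi cells (-0.28 ± 0.18, adjusted p = 0.186).

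**Figure D5:**
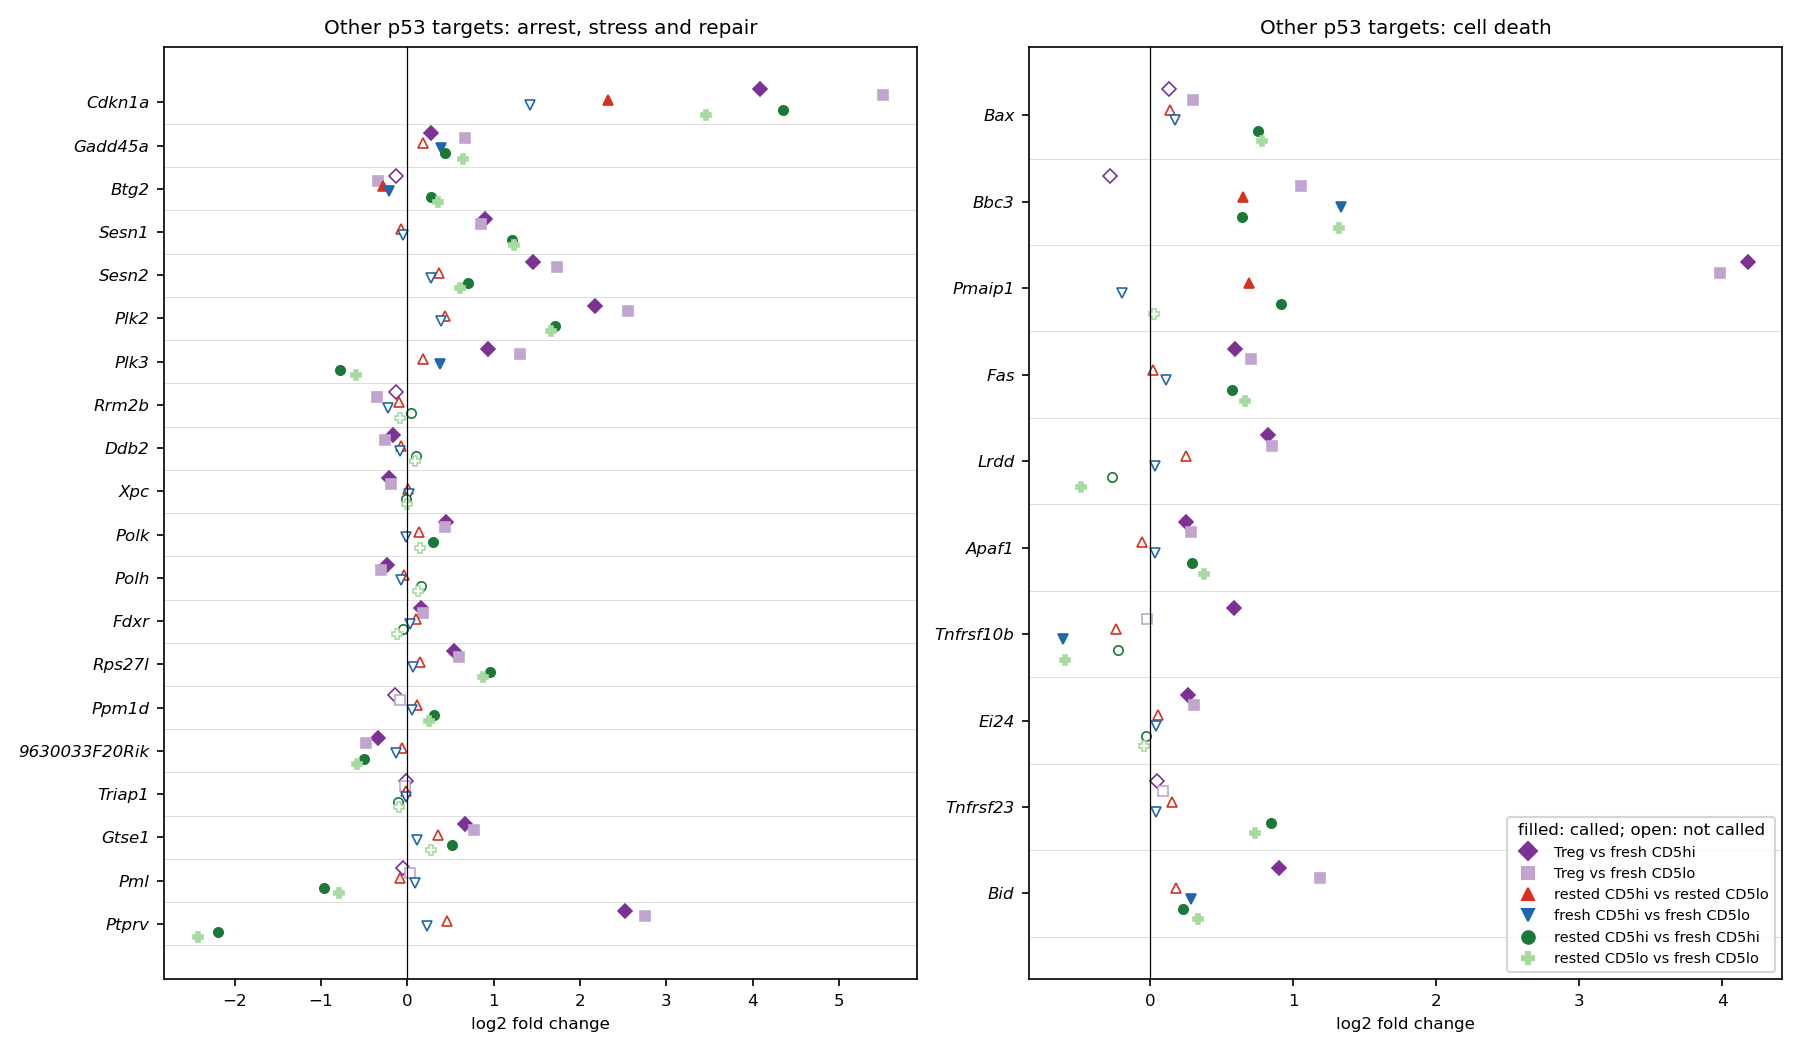
Log2 fold change of other p53 targets for arrest, stress and repair (left) and for cell death (right) in 6 comparisons, with filled symbols for calls at an adjusted p under 0.05. Sesn1, Plk2, Bax and Fas are filled to the right of 0 in both rested comparisons, Pmaip1 lies near 4 in Treg, and Ptprv lies near -2 after rest and above 2 in Treg.

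The CD5 comparison gave few calls in the other target lists. Bbc3 was higher in fresh CD5hi cells (1.33 ± 0.18, adjusted p = 1.43e-05) and in rested CD5hi cells (0.65 ± 0.17, adjusted p = 0.021), and the interaction was not called (-0.68 ± 0.25, adjusted p = 0.485). The rested call on Bbc3 was lost in the fit on the compared groups only (adjusted p = 0.117), without rested CD5lo replicate 1 or 2 (adjusted p = 0.0743 and 0.0856) and without rested CD5hi replicate 3 (adjusted p = 0.0766). Tnfrsf10b, a death receptor gene, was lower in fresh CD5hi cells (-0.61 ± 0.13), and Btg2, an antiproliferative gene, was lower in rested CD5hi cells (-0.29 ± 0.06). In all, 3 of 20 arrest and repair genes and 3 of 10 death genes were called in fresh cells (15% and 30%, against 11.5% of all genes), and 2 of 20 and 2 of 10 in rested cells (10% and 20%, against 8.2% of all genes). With the replicate block the arrest and repair counts were 5 in fresh and 4 in rested cells, and the calls over all genes rose from 1524 to 2806 and from 1092 to 2372. In the model without a block the fresh count was 0 to 1 without fresh CD5lo replicate 1, 2 or 3 or any single fresh CD5hi library. The 2 rested calls among death genes, Bbc3 and Pmaip1 (0.69 ± 0.20, adjusted p = 0.0289), were 0 in the fit on the compared groups only and without rested CD5lo replicate 1 or 2, and 1 without rested CD5lo replicate 4 or rested CD5hi replicate 1, 2 or 3. Pmaip1 was also lost with the replicate block (0.68, adjusted p = 0.0521). The interaction was called in none of either list by edgeR or DESeq2, with 0 of 20 and 2 of 10 at an unadjusted p under 0.05, which 848 of all 13309 genes reached. With the replicate block it was called in 1 death gene and in 354 of all genes, against 60 of all genes without the block.

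Among genes that act on p53 (23 of 24 tested), most calls in Treg were lower: 13 lower and 3 higher against CD5hi cells, and 15 lower and 3 higher against CD5lo cells, where 26.6% and 29.4% of all genes were lower. The median log2 fold change was -0.21 against CD5hi and -0.22 against CD5lo cells. Besides Mdm4 the lower genes included Atm, the kinase that signals double-strand breaks (-0.49 ± 0.05 and -0.63 ± 0.05), and Ppp1r13l, which encodes the p53 inhibitor iASPP (-1.11 ± 0.30 and -1.15 ± 0.30). Ppp1r13l was no longer called among libraries with Y-linked reads (-0.90 and -0.93), where Treg is replicate 3 alone. Chek1, a checkpoint kinase gene, was higher in Treg (1.82 ± 0.26 and 2.02 ± 0.26).

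After rest 6 regulators were higher and 5 lower in CD5hi cells, and 7 higher and 8 lower in CD5lo cells, which is 47.8% and 65.2% called, near the 52.4% and 54.3% of all genes. Hipk2 encodes a kinase that phosphorylates p53, and it stood highest in rested CD5hi cells at 75.0, 77.5, 69.9 and 72.2 CPM. It held 41.9, 38.7, 38.7 and 35.9 CPM in rested CD5lo cells, 25.0, 31.2, 39.9 and 24.7 CPM in fresh CD5hi cells and 10.8, 13.9, 15.8 and 12.5 CPM in fresh CD5lo cells. It was higher after rest (1.29 ± 0.13 in CD5hi and 1.55 ± 0.13 in CD5lo cells) and higher in CD5hi cells both fresh (1.19 ± 0.13, adjusted p = 7.07e-07) and rested (0.92 ± 0.13, adjusted p = 2.46e-05). Usp7, a deubiquitinase gene of Mdm2 and p53, was lower in fresh CD5hi cells (-0.30 ± 0.05), and in rested ones (-0.19 ± 0.05). Hipk2 and Usp7 were the 2 regulators called between CD5 classes in either state, where 11.5% of all genes were called fresh and 8.2% rested. With the replicate block 5 regulators were called fresh and 4 rested, and the calls over all genes rose from 1524 to 2806 and from 1092 to 2372. Usp7 was lost between rested cells without rested CD5lo replicate 1, 2 or 4 or rested CD5hi replicate 1, 2 or 3, and in the fit on the compared groups only. Ppp1r13l, lower in Treg, was higher after rest by 1.71 ± 0.27 in CD5hi and 1.36 ± 0.27 in CD5lo cells.

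Relatives of the 7 genes were mixed. Of 13 listed relatives 9 were tested, and Trp63 and Trp73, the other genes of the p53 family, were among those too low to test. Mdm4 counts here as well as among the regulators. Phlda1, a relative of Phlda3, was lower after rest (-1.03 ± 0.17 in CD5hi and -0.87 ± 0.18 in CD5lo cells), where Phlda3 was higher. In Treg both were higher, Phlda1 by 1.52 ± 0.16 against CD5hi and 2.02 ± 0.17 against CD5lo cells. Isg20, an exonuclease gene related to Aen, was lower after rest (-2.14 ± 0.10 and -2.04 ± 0.10) and higher in Treg (0.83 ± 0.09 and 1.06 ± 0.09). Ccng2, the relative of Ccng1, was higher after rest (0.74 ± 0.10 and 0.97 ± 0.10), as was Trp53inp2 (0.78 ± 0.25 and 1.27 ± 0.26), whose CD5hi call was lost without rested CD5hi replicate 3 or 4 (adjusted p = 0.0565 and 0.0643). Between CD5 classes Trp53inp2 was called in fresh cells (0.92 ± 0.26, adjusted p = 0.0233), which was lost without fresh CD5lo replicate 1, 2 or 4 or fresh CD5hi replicate 2 or 4. No relative was called in rested cells by edgeR or DESeq2, with 0 at an unadjusted p under 0.05. With the replicate block 2 relatives were called in rested cells, where the calls over all genes rose from 1092 to 2372. In all, 4 relatives were higher and 3 lower in rested CD5hi, and 4 higher and 4 lower in rested CD5lo cells, where 52.4% and 54.3% of all genes were called. In Treg 2 were higher and 2 lower against CD5hi, and 4 higher and 3 lower against CD5lo cells, where 54.2% and 58.5% of all genes were called.

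Cell cycle genes that p53 is known to lower through p21 and the DREAM complex were higher in Treg. Of 15 tested, 13 were higher and none lower against either fresh group, where 27.5% (CD5hi) and 29.2% (CD5lo) of all genes were higher, led by the proliferation marker Mki67 (2.71 ± 0.17 against CD5hi and 3.52 ± 0.18 against CD5lo cells) and the mitotic kinase gene Aurkb (2.58 ± 0.31 and 3.31 ± 0.32). Rested CD5hi cells had 4 higher and 1 lower, and rested CD5lo cells 2 higher and 3 lower, which is 33.3% called in each, against 52.4% and 54.3% of all genes. Among the lower ones was the topoisomerase gene Top2a, at -0.78 ± 0.11 and -0.89 ± 0.12, and among the higher ones the cyclin gene Ccnb2, at 0.94 ± 0.24 and 1.09 ± 0.25. Against CD5lo cells in the model without a block, 4 of 15 were higher in fresh CD5hi and 5 in rested CD5hi cells, none lower. There 6.86% and 4.74% of all genes were higher, and Mki67 was higher by 0.81 ± 0.17 fresh and 1.44 ± 0.19 rested. The fresh count was 2 without fresh CD5lo replicate 2 or fresh CD5hi replicate 2 or 3. The interaction was called in the cyclin gene Ccnb1 (1.86 ± 0.41, adjusted p = 0.044), and lost without any one library other than fresh CD5lo replicate 3 and rested CD5hi replicates 3 and 4.

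Markers of other cells moved with some of these comparisons. The summed level of 6 B cell genes was 31.5 to 33.8 CPM in Treg, against 4.11 to 6.02 CPM in the fresh naive libraries, most of it Cd79b at 15.9 to 18.2 CPM, while Cd79a stayed within 2.09 to 4.52 CPM in these groups. The summed level of 6 Treg genes was 303 to 363 CPM in rested and 64.2 to 102 CPM in fresh naive libraries, against 3070 to 3372 CPM in Treg. Foxp3 itself averaged 23.3 CPM in rested CD5lo and 28.6 CPM in rested CD5hi cells, against 22.4 and 24.1 CPM fresh. In the same order Ikzf2 averaged 2.07 and 5.18 CPM rested against 1.75 and 9.63 CPM fresh. Il2ra averaged 108 and 88.6 CPM rested against 2.93 and 1.64 CPM fresh, and Tnfrsf18, Ctla4 and Ikzf4 were also higher after rest. The summed level of 6 myeloid genes was 3.2997 to 5.96 CPM in rested against 12.5 to 18.4 CPM in fresh naive libraries, with C1qa at 0 in rested CD5lo cells. The summed level of 5 NK cell genes was 6.08 to 8.40 CPM in Treg, 0.387 to 1.67 CPM in rested cells, 4.84 to 6.73 CPM in fresh CD5hi and 1.84 to 2.40 CPM in fresh CD5lo cells, with Ncr1 at 0 in fresh CD5hi and both rested groups, Klre1 in both CD5hi groups and Gzma in rested CD5hi cells. The part of these cells in the results was not tested.

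Across the 20 libraries Ccng1 and Trp53inp1 moved most alike of the 21 pairs of members, with Pearson's r = 0.935 and Spearman's rho = 0.887 on log2(CPM + 0.5). Phlda3 had r = 0.741 with Zmat3, 0.755 with Trp53inp1 and 0.710 with Ccng1. Mdm2 went the other way, with r = -0.643 to Ccng1 and -0.638 to Trp53inp1, and Aen went most with Trp53 (r = 0.567). These are descriptions of 5 groups of 4 libraries that share culture, sex and scaling. Of 9513 other genes searched, those most like Phlda3 were Fabp5 (r = 0.961), Tkt (0.952) and Zc3h7b (0.949). Those most like Trp53inp1 were Oaz2-ps, a pseudogene symbol whose reads may belong to its parent gene (0.972), Tcfe3 (0.955) and the p53 target Fas (0.953). Zmat3 was most like Git1 (0.893) and 2 further genes, one of them the p53 target Sesn2 (0.891). Crebbp, which encodes a coactivator of p53, was the gene most like Trp53 (0.942). Ccng1 was most like Cab39 (0.946), Mdm2 like Vmn1r58 (0.884) and Aen like L1cam (0.884).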

How the data were processed

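Polyadenylated RNA of sorted mouse CD4 T cells was sequenced from TruSeq mRNA version 2 libraries with paired ends of 50 cycles, per the labels' protocols. The authors deposited raw counts per gene, which are whole numbers. Tools named in the submitters' processing notes are Subread with featureCounts 1.4.5, edgeR and TopHat2 2.0.11, and the build is mm9, with no order of steps. Annotation and use of strand: not given in the sources used here. Even numbers made up 62.3% to 66.2% of the counts from 1 to 10, so counts may include both mates of a fragment, and the counts behind scarce genes cover counting error only. A second deposited table was not used.

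Groups were taken from sample titles, since the cell type field gives 1 text for every sample. Genes were filtered with filterByExpr, which left 13309 of 22068, scaled with TMM and tested with edgeR's quasi-likelihood test in 1 model of the 5 groups with 15 residual degrees of freedom. P-values were adjusted by Benjamini-Hochberg over all genes inside each comparison, with calls made under an adjusted p of 0.05. Levels are TMM-scaled CPM and compare libraries for 1 gene, not different genes. The standard error is the log2 fold change divided by the square root of F, which is unreliable near 0. Tools were edgeR 4.0.16, limma 3.58.1 and DESeq2 1.42.0 in R 4.3.3, and the model was tested on simulated data. All 7 genes are described. From the other lists called genes that reached 1 CPM in the higher group were eligible, up to 4 per list and comparison by size, with Cdkn1a and Mdm4 always, and of these the text names some. Genes alike were the 3 of highest Pearson's r among tested genes with a mean of at least 5 CPM. The 7 genes and all lists were chosen with earlier results of these data known.

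Alternatives were other scaling, filters, DESeq2, the compared groups alone, a replicate block, a term for sex read from Xist and Y-linked counts, libraries with Y-linked reads alone, each library left out, and, added after the data were seen, rested replicates 1 and 2 or 3 and 4 alone. Same-numbered CD5hi and CD5lo libraries of 1 state deviated together, with correlations of their deviations of 0.317 to 0.570 in fresh and 0.287 to 0.752 in rested cells, and were taken as paired. Promoter sequences are from RefSeq on GRCm38.p6, matched by gene symbol. The build named for the counts is mm9, and no coordinates of it are used here.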

Additional observations from a re-analysis of the deposited data

Results flagged for a closer look

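Among 45 sets of 4 libraries, 1 for each gene and group, 4 held a library far from the other 3, with a gap to the nearest above Dixon's critical value. Such a gap arises by chance in about 1 in 20 sets. Trp53 stood at 174 CPM in fresh CD5hi replicate 3, against 156 to 158 CPM in the other 3, and without it the lower Trp53 of Treg against fresh CD5hi cells was not called (-0.09, adjusted p = 0.155). Phlda3 stood at 4.73 CPM in Treg replicate 1, against 3.11 to 3.23 CPM in the other 3, and its calls in Treg held without that library. Zmat3 stood at 31.9 CPM in Treg replicate 3, against 36.6 to 37.5 CPM in the other 3. Mdm4 stood at 185 CPM in rested CD5hi replicate 3, against 322 to 336 CPM in the other 3. The last 2 are the replicate with Y-linked reads in their groups.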

How the results depend on the processing

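In rested CD5hi against rested CD5lo cells, 0 of the 7 genes were called, and 1 (Phlda3) with a filter at 1 CPM in 4 libraries, 2 (Phlda3 and Aen) in DESeq2, 2 with the replicate block, 1 (Aen) with rested replicates 1 and 2 alone, and 0 to 2 with single libraries left out. With single libraries left out the count was 2 to 4 in rested CD5lo, 3 to 5 in rested CD5hi, 5 in Treg against CD5lo and 4 to 6 in Treg against CD5hi, and 0 in fresh CD5hi against fresh CD5lo cells and in the interaction. Except for the replicate block, the calls over all genes in these settings are not given here. These counts alone therefore do not set the 7 genes apart from the rest of the transcriptome.

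Values that changed sign were not called. With a term for sex, Trp53 was -0.03499 in rested CD5lo and -0.02695 in rested CD5hi, and Aen was -0.02267 in rested CD5lo. Among libraries with Y-linked reads Trp53 was -0.04679 in rested CD5hi. With rested replicates 1 and 2 alone Mdm2 was 0.04636 in rested CD5hi and the interaction of Trp53 was -0.001442, and with replicates 3 and 4 alone that of Phlda3 was -0.03159. With single libraries left out, these log2 values crossed 0. Between fresh CD5 classes Mdm2 ran from -0.01629 to 0.03899, Ccng1 from -0.004144 to 0.05504 and Zmat3 from -0.005555 to 0.1006. Between rested CD5 classes Ccng1 ran from -0.06808 to 0.1688 and Trp53inp1 from -0.2387 to 0.02759. Trp53 ran from -0.008047 to 0.05808 in rested CD5lo and from -0.0005678 to 0.05985 in rested CD5hi cells, where Mdm2 ran from -0.08788 to 0.054. The interaction ran from -0.03743 to 0.04645 for Trp53, from -0.1502 to 0.309 for Phlda3, from -0.09116 to 0.1457 for Ccng1, from -0.0429 to 0.06341 for Zmat3 and from -0.1124 to 1.404 for Cdkn1a. The cause was not tested.

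The replicate block across states left the member counts at 3 in rested CD5lo, 4 in rested CD5hi and 5 in Treg against either fresh group. There the numbers share no pairing, with correlations of -0.193 to 0.133. Within states the block raised the genes called from 1524 to 2806 in fresh, from 1092 to 2372 in rested cells and from 60 to 354 for the interaction, and changed no other call on the 7 genes.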
